A study of Mus musculus with 42 samples.

Results

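The transcripts described here are those of 9 selenoprotein genes of the mouse kidney: Gpx1, Gpx3, Gpx4, Selenop, Selenof, Selenok, Selenom, Msrb1 and Dio1. They were chosen by gene name, as selenoproteins with high levels in these kidneys, from tables of 54532 genes, and all 9 were found, counted in every library and kept by the filter on low counts in each of the 3 cohorts. The 9 were proposed with results of these data in view, and the rule itself used the level of Gpx3 in Tsc2-null libraries, where it is the most abundant transcript of several, so Gpx3 is described without a test in every comparison that includes such libraries. Levels are FPKM, in which reads are scaled by gene length and library size, so that genes can be compared with each other.

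RNA of 42 whole kidneys of C57BL/6 mice was sequenced, with 14 groups of 3 mice. In the CaggCreERT2 cohort (Cagg-Cre in the labels), collected on postnatal day 30, Cre is expressed throughout the body and was activated by tamoxifen given to the lactating mothers on the first days after birth. Its groups were Tsc2 KO, Tfeb KO, Tsc2+Tfeb double knockout (DKO) and control, and the controls were Cre-positive mice without floxed Tsc2 that also received tamoxifen. In the KspCre cohort (KSP-Cre in the labels), collected on day 50, Cre is driven by the promoter of the kidney cadherin Cadh16 and acts in tubular epithelium. This cohort also held Tsc2 KO, Tfeb KO, DKO and control groups, and its controls were Cre-negative. A second KspCre cohort, also collected on day 50, held control, Tsc2 KO and DKO mice injected with vehicle or with rapamycin, an inhibitor of mTORC1. Rapamycin was given at 1 mg/kg, with 3 injections a week and 11 in all from day 25 to day 50. The paper lists the control mice of this treatment as Cre-negative. In both KspCre cohorts, then, Tsc2 KO and control mice differed in Cre as well. Since the RNA is that of the whole organ, fewer cells of a type and less RNA per cell cannot be told apart in any result that follows. No label says more of the 3 samples of a group than a replicate number, so p-values measure the spread between these kidneys.

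Reads counted on genes ranged from 14926050 to 22807605 per library. The chi-square per gene between replicate kidneys was 15.2 to 80.2, where counting error alone gives about 1. The spread between kidneys thus limits the precision of the levels, and the parts of mouse, dissection and library in it were not separated. Tsc2 followed the labels: its mean was 3.91 to 4.25 FPKM in untreated and vehicle-treated Tsc2 KO kidneys and 8.93 to 10.3 FPKM in their controls. Mean Tfeb was 3.37 FPKM in CaggCreERT2 and 4.79 FPKM in KspCre Tfeb KO kidneys against 5.96 and 6.05 FPKM in their controls, but Tsc2 KO kidneys with intact Tfeb had 4.58 FPKM in the KspCre cohort (3.66 to 6.12), so that Tfeb does not separate those groups. In the CaggCreERT2 cohort the count and FPKM tables name 4 libraries differently, and those of the FPKM table are used here. Tsc2 goes against the count table's names: its DKO 3, which is Tfeb KO 3 in the FPKM table, had 10.2 FPKM, and its Tfeb KO 3, which is DKO 1 in the FPKM table, had 5.26 FPKM, beside 4.82 and 5.64 FPKM in the other DKO and 9.34 and 9.05 FPKM in the other Tfeb KO kidneys. The sexes there were not balanced by their RNA: controls were 3 males, Tsc2 KO 1 male and 2 females, Tfeb KO 3 females and DKO 2 males and 1 female, while every KspCre library was female. A list of 5 adrenal cortex genes (Cyp11a1, Star, Hsd3b1, Cyp21a1, Cyp11b1) summed to 0.740 to 2.33 FPKM in 36 libraries. It summed to 271 and 33.3 in CaggCreERT2 Tfeb KO 1 and 2, to 1323 and 50.8 in vehicle-treated Tsc2 KO 1 and 2, and to 302.5 and 4259 in vehicle-treated DKO 1 and 2. A list of 8 macrophage genes summed to 679.6 FPKM in KspCre DKO 1. Calls of the selenoprotein transcripts that were lost without these libraries are given with the values without them. Without the adrenal-marked libraries a single kidney was left in each of the vehicle-treated Tsc2 KO and DKO groups, assumed to vary like the other groups, and fewer genes were called over all: 27.1% for Tsc2 KO against control, 4.60% for DKO against Tsc2 KO and 17.6% for rapamycin in Tsc2 KO kidneys.

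Selenoproteins carry selenocysteine, an amino acid written in messenger RNA by the stop codon UGA, which is read as selenocysteine when a hairpin in the 3′ untranslated region, the SECIS element, recruits SECISBP2 and the elongation factor EEFSEC. The kidney is a major site of selenium use. Its proximal tubule makes the plasma glutathione peroxidase GPX3 and takes up filtered selenoprotein P through megalin (Lrp2). When selenium is scarce, the proteins and messages of this family are kept in a known order, in which Gpx1 is given up early and Gpx4 late.

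The selenocysteine codon is the sequence that the 9 genes share. It is shown for each gene on the coding strand with up to 12 bases on either side, and the capitals mark the codon. Sequences were read from the mm10 transcripts of GENCODE M21.

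Gpx1: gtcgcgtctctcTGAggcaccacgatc
Gpx3: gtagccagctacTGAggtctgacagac
Gpx4: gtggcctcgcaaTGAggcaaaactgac
Selenop, first of 10: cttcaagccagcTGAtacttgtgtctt
Selenop, last of 10: aggaagtgaaaaTGAcattcaaac
Selenof: gaagtctgcggaTGAaaattggggagg
Selenok: atggctggtggaTGAggaagg
Selenom: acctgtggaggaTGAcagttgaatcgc
Msrb1: caatcaagattcTGAatatttagcagc
Dio1: ggcagttgcaccTGAccttcatttctt

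Of the 9 genes, 8 hold 1 such codon in frame and Selenop holds 10, of which the first lies in exon 2 of 5, at codon 59 of 380, and the other 9 in exon 5. In Gpx1 the codon is at chr9:108339451-108339453, in exon 1 of 2, and is codon 47 of 201. In Gpx3 it is at chr11:54907256-54907258, in exon 2 of 5, and in Gpx4 at chr10:80054737-80054739, in exon 3 of 7; in both it is codon 73. In Dio1, on the minus strand, it is at chr4:107297700-107297702, in exon 2 of 4, and is codon 126 of 257. In Selenok, at chr14:29973440-29973442, it is codon 92 of 94, so that 2 more amino acids follow it. All but Dio1 lie on the plus strand, and the remaining codons are at chr3:144590645-144590647 in Selenof, chr11:3516273-3516275 in Selenom and chr17:24740158-24740160 in Msrb1, in exons 3, 2 and 3.

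The 9 transcripts spanned a range of levels, from Gpx3 to Selenom. Gpx3 (ENSMUSG00000018339, chr11:54902453-54910377) had 11276 to 28564 FPKM over the 42 libraries, with a median of 17770.3, and ranked 1 to 5 among protein-coding genes by FPKM. Gpx1 (ENSMUSG00000063856, chr9:108338903-108340343) had a median of 1039 FPKM, Gpx4 (ENSMUSG00000075706, chr10:80047166-80056439) 345 FPKM and Selenop (ENSMUSG00000064373, chr15:3268547-3280508) 327 FPKM. The other 5 were lower, with medians of 78.5 FPKM for Msrb1 (ENSMUSG00000075705, chr17:24736642-24742778) and 63.2 FPKM for Dio1 (ENSMUSG00000034785, chr4:107291465-107307169). Medians were 47.3 FPKM for Selenof (ENSMUSG00000037072, chr3:144570304-144597680) and 43.6 FPKM for Selenok (ENSMUSG00000042682, chr14:29968308-29975662). Selenom (ENSMUSG00000075702, chr11:3514684-3517351) had 20.7 FPKM and ranked 1339 to 3886, so that its level is not among the high ones of the kidney. Among selenoprotein genes outside the 9, 3 were higher than several of them: Sephs2 with a median of 120.5 FPKM, Selenow with 110.2 FPKM and Selenot with 99.7 FPKM. Across the 14 groups the highest group mean was 4.62 times the lowest for Dio1, 3.29 times for Gpx1 and 2.63 times for Selenop. Selenof varied least, with 1.38 times between the highest and lowest group mean, and Gpx3 had 1.68 times. The tables of the 3 cohorts were normalized separately, so levels are compared by test only within a cohort.

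**Figure D1:**
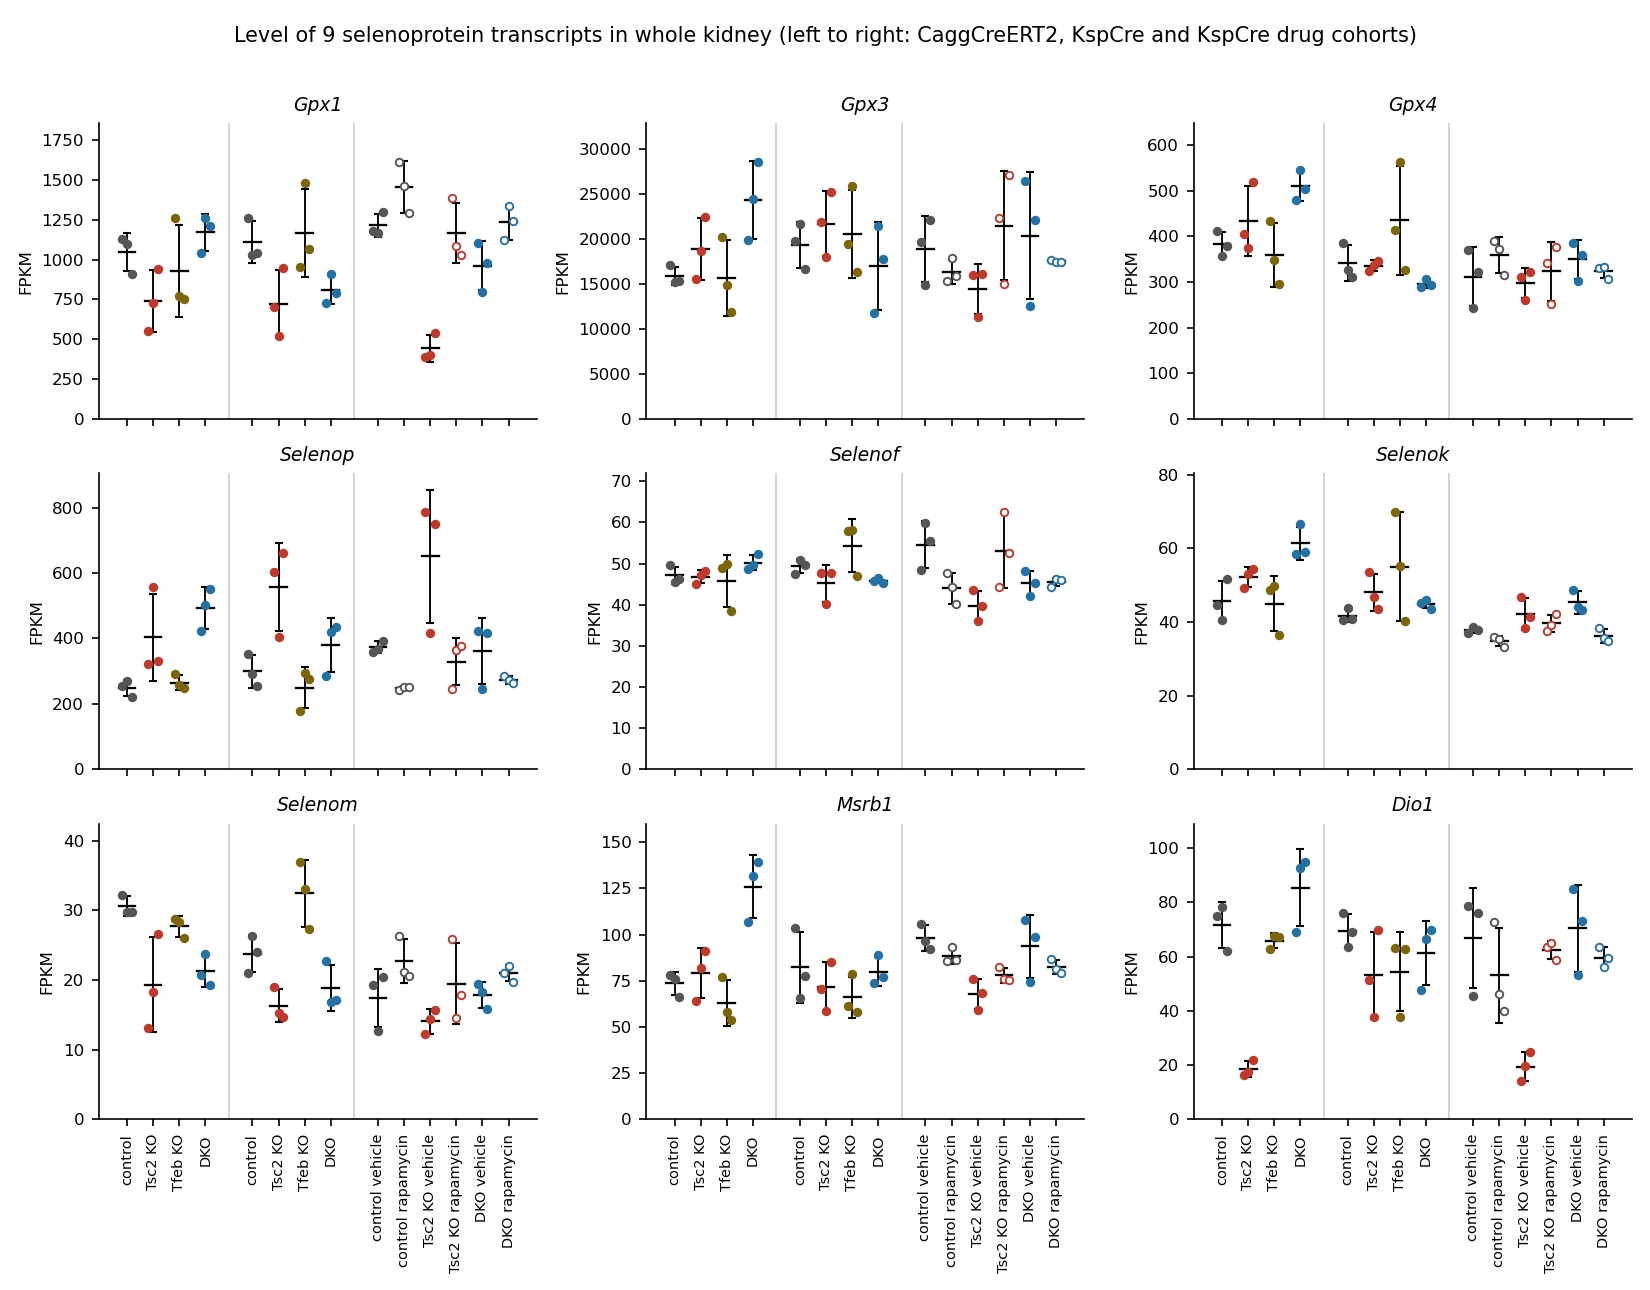
FPKM (linear axis from 0) of each of the 9 selenoprotein transcripts in the 42 kidneys, with 1 point per library, open points for rapamycin, and a bar and whiskers for the mean and SD of each group of 3. Dio1 of CaggCreERT2 and vehicle-treated KspCre Tsc2 KO kidneys lies at 14.0 to 24.8 FPKM, below every other library.

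Gpx3, the secreted glutathione peroxidase of plasma, took 2.22% to 4.74% of all counted reads of a library. By read count it was the top transcript of 18 of the 42 libraries, and the mitochondrial transcript mt-Co1 was the top one in the others. Those 18 were all 9 untreated or vehicle-treated Tsc2 KO libraries, 3 CaggCreERT2 DKO, 1 KspCre DKO, 3 vehicle-treated DKO and 2 rapamycin-treated Tsc2 KO libraries. In the CaggCreERT2 cohort Gpx3 took 2.58% to 2.80% of the reads of controls and 2.81% to 3.89% of those of Tsc2 KO kidneys, while mt-Co1 took 3.28% to 5.07% and 1.75% to 2.22%. In the KspCre cohort the share of Gpx3 was 3.08% to 3.87% in controls and 3.55% to 4.54% in Tsc2 KO kidneys. That of mt-Co1 was 4.11% to 5.24% and 2.98% to 3.37%. In the vehicle-treated cohort the share of Gpx3 was 2.61% to 3.76% in controls and 2.44% to 3.29% in Tsc2 KO kidneys. There mt-Co1 took 3.82% to 5.45% and 1.78% to 2.54%. The first place of Gpx3 in vehicle-treated Tsc2 KO kidneys thus went with a lower share of mt-Co1 and not with a higher share of Gpx3.

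**Figure D2:**
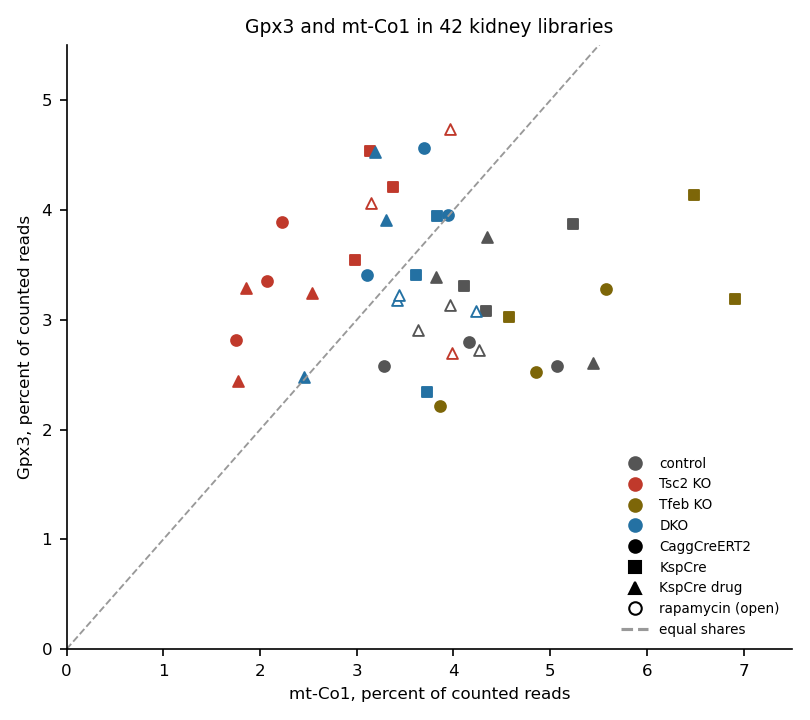
Percent of counted reads on Gpx3 (vertical axis) against percent on mt-Co1 (horizontal axis), 1 point per library, both axes from 0; the dashed line marks equal shares. The 9 untreated or vehicle-treated Tsc2 KO libraries (filled red) lie above the line, with 1.75% to 3.37% on mt-Co1.

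Gpx3 levels in the CaggCreERT2 controls were 17069, 15169 and 15374 FPKM, and in the Tsc2 KO kidneys 15500.4, 18673 and 22406 FPKM. Levels in the Tfeb KO kidneys were 20206, 14855 and 11922 FPKM, and in the DKO kidneys 19886, 24412 and 28564 FPKM. The DKO range lay above that of the controls and overlapped that of the Tsc2 KO kidneys. Fitted log2 fold changes were 0.31 (SE 0.22) for Tsc2 KO against control and 0.65 (SE 0.22), or 1.57-fold, for DKO against control. In the KspCre cohort Gpx3 was 19713, 21693 and 16625 FPKM in controls, 21868, 18009.9 and 25221 FPKM in Tsc2 KO, and 11716, 21459 and 17713 FPKM in DKO kidneys. All 3 ranges overlapped, with log2 fold changes of 0.16 (SE 0.27) for Tsc2 KO and -0.19 (SE 0.27) for DKO against control. The latter rested on the macrophage-rich DKO 1, the lowest of the cohort, and was 0.02 (SE 0.26) without it. With vehicle, controls had 19703, 14898 and 22129.6 FPKM, Tsc2 KO kidneys 15996, 11276 and 16073 FPKM and DKO kidneys 26427, 12556 and 22119 FPKM. With rapamycin, controls had 15303, 17828 and 15850.4 FPKM, Tsc2 KO kidneys 22293, 15015 and 27086 FPKM and DKO kidneys 17661, 17405 and 17484 FPKM. The ranges of Tsc2 KO and control kidneys with vehicle overlapped, as did those of Tsc2 KO kidneys with vehicle and with rapamycin, at log2 fold changes of -0.39 (SE 0.26) and 0.57 (SE 0.26). These were -0.25 (SE 0.28) and 0.43 (SE 0.28) without the adrenal-marked libraries. Without Tsc2 deletion Gpx3 was not called. Tfeb KO against control gave 0.01 (SE 0.22) in the CaggCreERT2 and 0.09 (SE 0.27) in the KspCre cohort, where Tfeb KO kidneys had 19376, 25853 and 16363 FPKM, and rapamycin against vehicle in controls gave -0.21 (SE 0.26). Without the adrenal-marked CaggCreERT2 Tfeb KO 1 and 2 the first of these was -0.40 (SE 0.26), not called either (edgeR adjusted p = 0.537).

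The comparisons ask how deletion of Tsc2 in the whole body or in tubules changed these transcripts, whether removing Tfeb as well or giving rapamycin changed them back, and whether either acted without Tsc2 loss. A gene was called when its p from the edgeR quasi-likelihood test, adjusted over all genes by Benjamini-Hochberg, was at most 0.05 and its mean was at least 5 FPKM in 1 of the groups. Counts are over the 8 transcripts other than Gpx3. In CaggCreERT2 Tsc2 KO kidneys 3 of 8 were called, Selenop higher and Selenom and Dio1 lower, where 38.4% of all genes were, so that the count is near the background. For CaggCreERT2 DKO against Tsc2 KO kidneys 2 of 8 were called, Msrb1 and Dio1, both higher, against 14.5% of all genes (6.91% higher), and for DKO against control 3 of 8, Selenop, Selenok and Msrb1, all higher, against 14.9% (10.2% higher). In KspCre Tsc2 KO kidneys 1 of 8 was called, Selenop higher, against 18.2% (9.42% higher). In vehicle-treated Tsc2 KO kidneys 5 of 8 were called, Selenop higher and Gpx1, Selenof, Msrb1 and Dio1 lower, against 48.5% of all genes. For vehicle-treated DKO against Tsc2 KO kidneys 4 of 8 were called, Gpx1, Msrb1 and Dio1 higher and Selenop lower, against 29.5% (16.9% higher). Without the adrenal-marked libraries, 4 of the 6 compared, 1 kidney was left in each group and these calls were lost. Log2 fold changes were then 0.87 for Gpx1, 0.53 for Msrb1, 1.56 for Dio1 and -0.84 for Selenop. With all libraries they were 1.12, 0.46, 1.85 and -0.85. The cause of the loss was not tested. For rapamycin against vehicle in Tsc2 KO kidneys 4 of 8 were called, Gpx1, Selenof and Dio1 higher and Selenop lower, against 38.5% (21.2% higher and 17.3% lower). The median log2 fold change of the 8 transcripts other than Gpx3 was 0.11 in CaggCreERT2 Tsc2 KO kidneys, -0.17 in KspCre and -0.38 in vehicle-treated ones, beside 0.00, -0.01 and 0.01 over all genes. With so few members no share stands apart from its background by a wide margin, and the results lie in the single transcripts.

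In 8 of the comparisons no member was called by edgeR. They were Tfeb KO against control in both cohorts (0 of 9 each, background 0.0256% in CaggCreERT2 and 0% in KspCre), KspCre DKO against Tsc2 KO (0 of 8, 0.286%) and against control (0 of 8, 3.89%). The others were vehicle-treated DKO against control (0 of 8, 8.42%), rapamycin against vehicle in DKO (0 of 8, 7.43%) and in controls (0 of 9, 0.0664%), and rapamycin-treated Tsc2 KO against control (0 of 8, 0.821%). At an unadjusted p under 0.05 these held Selenop for KspCre DKO against Tsc2 KO, Selenok and Selenom for KspCre Tfeb KO, and Selenof and Selenok for vehicle-treated DKO against control. They also held Gpx1 and Selenok for rapamycin in DKO, Selenop and Selenof for rapamycin in controls, and Selenof for rapamycin-treated Tsc2 KO against control. CaggCreERT2 Tfeb KO and KspCre DKO against control held none at that p. DESeq2 and limma each called 1 member for rapamycin in DKO kidneys and 0 in the other 7. The test of whether the Tfeb effect in KspCre mice differed with and without Tsc2 called 0 of 8 members and 0% of all genes by edgeR, with 0 members at an unadjusted p under 0.05 and 0 called by DESeq2 or limma. Over all genes that test had 929 at an unadjusted p under 0.05, 75 called by DESeq2 and 4 by limma. Over all genes, KspCre Tfeb KO against control gave 0 calls by edgeR, 841 genes at an unadjusted p under 0.05, 11 calls by DESeq2 and 0 by limma.

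**Figure D3:**
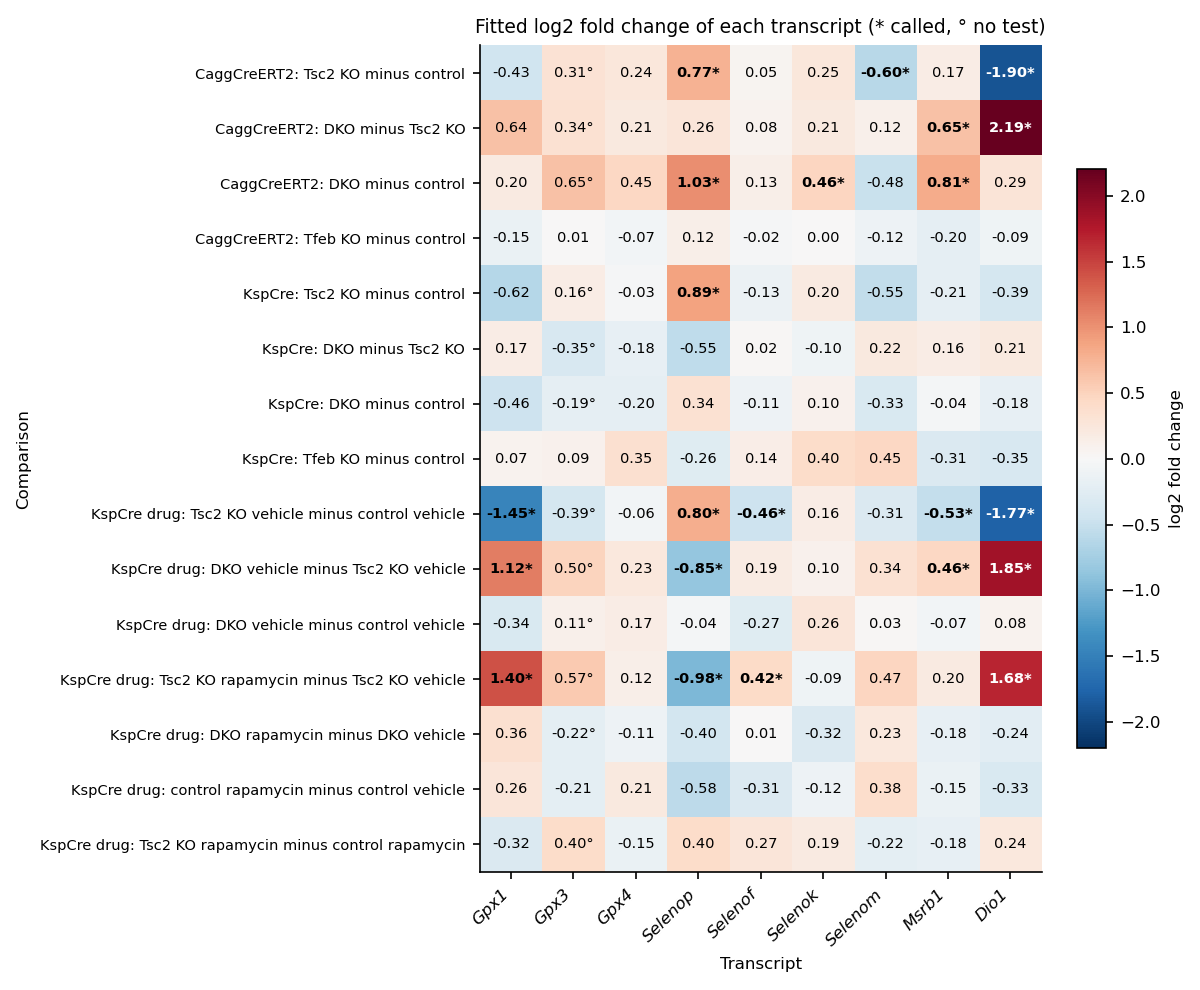
Fitted log2 fold change of each transcript (columns) in the 15 comparisons of 2 groups (rows), on a colour scale from blue (lower in the first group) to red (higher). An asterisk marks a call and a degree sign a value without a test; the largest called values are Dio1, at -1.90 and -1.77 in Tsc2 KO kidneys and at 2.19 and 1.85 for DKO against Tsc2 KO.

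Markers of the proximal tubule, where several of these transcripts are made, moved in the same comparisons. The 14 markers summed to 5141 to 5851 FPKM in CaggCreERT2 controls, 1320 to 2418 in Tsc2 KO and 3477 to 4993.5 in DKO kidneys, and 11 of 14 were called lower in Tsc2 KO kidneys, as were 15.5% of all genes. In KspCre mice they summed to 4996 to 6695 FPKM in controls, 2192 to 3894 in Tsc2 KO and 2280 to 4804 in DKO kidneys. Of the 14, 8 were called lower in Tsc2 KO kidneys, beside 8.74% of all genes. With vehicle the sums were 5603 to 5764 FPKM in controls, 929.9 to 1548 in Tsc2 KO and 3012 to 5695 in DKO kidneys, and with rapamycin 4770 to 5703 in Tsc2 KO kidneys. There 11 of 14 were called lower in Tsc2 KO against control, beside 24.6% of all genes, 11 of 14 higher in DKO against Tsc2 KO and 12 of 14 higher with rapamycin, and no proximal tubule marker was at 0 in any group. Those 3 counts were 12, 10 and 11 of 14 when the adrenal-marked libraries were left out, beside 14.2% of all genes lower, 3.80% higher and 9.80% higher. The 8 macrophage markers summed to 82.7 to 111 FPKM in CaggCreERT2 controls and 139 to 179 in Tsc2 KO kidneys, and with vehicle to 41.3 to 57.0 in controls and 97.4 to 178 in Tsc2 KO kidneys. Of 7 tubular injury markers 3 were called higher in the Tsc2 KO kidneys of each cohort, where 23% (CaggCreERT2), 9.42% (KspCre) and 23.8% (vehicle) of all genes were. Other cell types moved as well. The 4 podocyte markers summed to 143 to 158 FPKM in CaggCreERT2 controls and 40.1 to 61.4 in Tsc2 KO kidneys, to 90.9 to 111 and 30.6 to 41.1 in KspCre, and with vehicle to 89.7 to 117 in controls, 21.4 to 26.6 in Tsc2 KO and 59.1 to 71.0 in DKO kidneys, with 3 of 4 called lower in the Tsc2 KO kidneys of each cohort. The 5 erythrocyte genes, a sign of blood in the organ, summed with vehicle to 200.4 to 301 FPKM in controls, 14.3 to 87.0 in Tsc2 KO and 364 to 2153 in DKO kidneys, and to 128 to 492 and 20.4 to 42.7 in KspCre controls and Tsc2 KO kidneys. Of 6 markers of the thick limb and distal tubule 5, 4 and 5 were called lower in CaggCreERT2, KspCre and vehicle-treated Tsc2 KO kidneys. Of all genes 15.5%, 8.74% and 24.6% were called lower there. Their sum was 1521 to 1898 FPKM in CaggCreERT2 controls and 782 to 1024 in Tsc2 KO kidneys. In KspCre it was higher in Tsc2 KO kidneys (2057 to 2302 FPKM) than in controls (1785 to 1874). With vehicle the sums overlapped, at 1022 to 1965 FPKM in Tsc2 KO kidneys and 1600 to 2083 in controls. Umod, a large part of these sums, had a mean of 1123 FPKM in KspCre controls and 1876 in Tsc2 KO kidneys. With vehicle its means were 1033 and 1474 FPKM. The sums of these 2 cohorts thus follow Umod and do not show the markers that were called lower. The part of these markers in the results on the selenoprotein transcripts was not tested.

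Among the glutathione peroxidases, Gpx1, the cytosolic enzyme that reduces hydrogen peroxide, had a lower mean in Tsc2 KO than in control kidneys of all 3 cohorts, and the difference was called in the vehicle-treated one. With vehicle, Gpx1 was 1177, 1165 and 1300.5 FPKM in controls, 387, 404 and 538 FPKM in Tsc2 KO kidneys and 1105, 798 and 982 FPKM in DKO kidneys. With rapamycin it was 1614, 1459 and 1292 FPKM in controls, 1384, 1088 and 1028 FPKM in Tsc2 KO kidneys and 1122, 1336 and 1242 FPKM in DKO kidneys. The 3 vehicle-treated Tsc2 KO kidneys lay below the other 15 libraries of the cohort. Gpx1 fell by 1.45 on the log2 scale (SE 0.16), or was 2.74-fold lower, in Tsc2 KO against control kidneys with vehicle (edgeR adjusted p = 5.37e-06). With vehicle the DKO level was 2.17-fold that of Tsc2 KO kidneys (log2 1.12, SE 0.16, edgeR adjusted p = 0.000176) and rapamycin raised the Tsc2 KO level 2.64-fold (log2 1.40, SE 0.16, edgeR adjusted p = 1.46e-05). These 3 comparisons share the vehicle-treated Tsc2 KO libraries. The rapamycin effect in Tsc2 KO kidneys exceeded that in controls by 1.14 (SE 0.23, edgeR adjusted p = 0.00268) and that in DKO kidneys by 1.04 (SE 0.23, edgeR adjusted p = 0.0122). Without the adrenal-marked libraries Gpx1 was still called against control (log2 -1.19), with rapamycin (1.12) and for the difference from the effect in controls (0.87, edgeR adjusted p = 0.0387), but for DKO against Tsc2 KO it was 0.87 with an edgeR adjusted p of 0.0741, and for the difference from the DKO effect 0.79 with 0.228.

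In the CaggCreERT2 cohort Gpx1 was 1132, 1101 and 908 FPKM in controls, 554, 729 and 943 FPKM in Tsc2 KO and 1038, 1262 and 1212 FPKM in DKO kidneys. Control and Tsc2 KO ranges overlapped and neither comparison was called (log2 -0.43 for Tsc2 KO against control; 0.64, SE 0.22, edgeR adjusted p = 0.0834 for DKO against Tsc2 KO). In the KspCre cohort it was 1261, 1032 and 1039.9 FPKM in controls, 701, 519 and 947 FPKM in Tsc2 KO and 728, 907 and 793 FPKM in DKO kidneys. There the Tsc2 KO range lay below that of the controls, with a log2 difference of -0.62 (SE 0.23) that missed the threshold (edgeR adjusted p = 0.0929).

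Gpx4 reduces lipid hydroperoxides in membranes and protects from ferroptosis. With each cohort's groups fitted together, edgeR called it in none of the 15 comparisons. Its values ran from 242 to 564 FPKM. The values of CaggCreERT2 DKO kidneys, 480.4, 546 and 503 FPKM, lay above the control values of 412, 357 and 378 FPKM (log2 0.45, SE 0.15, edgeR adjusted p = 0.0816). KspCre DKO kidneys had 289.7, 307 and 293 FPKM against 386, 327 and 311 FPKM in controls (log2 -0.20, SE 0.17). Gpx4 has a processed copy, Gpx4-ps2, between which and the gene the counting could split reads. The count of Gpx4-ps2 was 3.57% to 4.42% of the size of the Gpx4 count in CaggCreERT2 libraries, 20.6% to 24.0% in KspCre and 18.1% to 23.3% in drug-cohort libraries. The absolute level of Gpx4 is therefore uncertain between cohorts, while the ratio of the copy to the gene varied little within each.

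Selenop, the secreted selenium carrier of plasma, was higher in Tsc2 KO kidneys of all 3 cohorts and was the only one of the 8 that was called in each. In CaggCreERT2 controls it was 254, 269 and 221 FPKM, in Tsc2 KO kidneys 322, 556 and 332 FPKM, in Tfeb KO kidneys 290.0, 256 and 249 FPKM and in DKO kidneys 423, 504 and 551 FPKM. The Tsc2 KO and DKO kidneys lay above all controls and Tfeb KO kidneys. Selenop was 1.70-fold higher in Tsc2 KO than in control kidneys (log2 0.77, SE 0.19, edgeR adjusted p = 0.0104) and 2.04-fold higher in DKO than in control kidneys (log2 1.03, SE 0.19, edgeR adjusted p = 0.00514). The size of the first difference rested on Tsc2 KO 2, the only male of its group, and was log2 0.47 without it (edgeR adjusted p = 0.0315). DKO against Tsc2 KO was not called (log2 0.26). With the names of the count table, which Tsc2 goes against as given above, both calls were lost (edgeR adjusted p of 0.103 and 0.467).

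In KspCre controls Selenop was 354, 291 and 254 FPKM, in Tsc2 KO kidneys 604, 405 and 662 FPKM, in Tfeb KO kidneys 178, 294 and 276 FPKM and in DKO kidneys 284, 418 and 434 FPKM. The Tsc2 KO range lay above that of the controls, at 1.86-fold (log2 0.89, SE 0.25, edgeR adjusted p = 0.0355), and the DKO range overlapped both. The overlap with the controls came from the macrophage-rich DKO 1, since the other 2 DKO kidneys lay above all controls. DKO against control was 0.34 on the log2 scale with it and 0.51 without it (edgeR adjusted p = 0.414), and was called in neither case. The call of Tsc2 KO was lost on leaving out control 1, 2 or 3 or Tsc2 KO 1 or 3 (log2 0.75 to 1.02, edgeR adjusted p of 0.0537 to 0.120), and with the replicate number as a block (log2 0.88, edgeR adjusted p = 0.0621).

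With vehicle, Selenop was 359, 366 and 393 FPKM in controls, 787, 416 and 749.6 FPKM in Tsc2 KO kidneys and 422, 245 and 418 FPKM in DKO kidneys. With rapamycin it was 242, 252 and 253 FPKM in controls, 246, 364 and 376 FPKM in Tsc2 KO kidneys and 286, 272 and 262 FPKM in DKO kidneys. Vehicle-treated Tsc2 KO kidneys lay above the controls and above all rapamycin-treated kidneys, but Tsc2 KO 2 lay within the DKO range. Selenop rose 1.75-fold against control (log2 0.80, SE 0.23, edgeR adjusted p = 0.0118) and was 1.97-fold lower with rapamycin than with vehicle in Tsc2 KO kidneys (log2 -0.98, SE 0.23, edgeR adjusted p = 0.00461). The DKO level was 1.80-fold below that of Tsc2 KO kidneys (log2 -0.85, SE 0.23, edgeR adjusted p = 0.0153). Both were still called without the adrenal-marked libraries, at 0.99 (edgeR adjusted p = 0.00289) and -1.18 (0.00165). Without Tsc2 KO 1 the call against control was lost (log2 0.65, edgeR adjusted p = 0.0569). The call of DKO against Tsc2 KO was lost without Tsc2 KO 1 or 3 or DKO 2 (log2 -0.74 to -0.64, edgeR adjusted p of 0.0530 to 0.0692), without the adrenal-marked libraries (-0.84, 0.103) and with only the groups compared in the fit (-0.87, 0.105). In controls the 3 values with rapamycin also lay below the 3 with vehicle, a difference that was not called (log2 -0.58, SE 0.23, edgeR adjusted p = 0.394), and the test of a difference in the rapamycin effect between Tsc2 KO and control kidneys did not call Selenop.

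Of the receptors that take up selenoprotein P, Lrp2 encodes megalin, on the brush border of the proximal tubule and one of its markers above, and Lrp8, which serves brain and testis, was low, at 0.0703 to 1.16 FPKM. Lrp2 was 107, 101 and 84.5 FPKM in CaggCreERT2 controls, 33.3, 46.8 and 52.7 FPKM in Tsc2 KO and 75.9, 74.1 and 93.7 FPKM in DKO kidneys. It fell by 1.08 on the log2 scale in Tsc2 KO kidneys (SE 0.19, edgeR adjusted p = 0.00152). In the KspCre cohort Lrp2 was 168, 118 and 148 FPKM in controls and 53.2, 44.8 and 77.4 FPKM in Tsc2 KO kidneys (log2 -1.31, SE 0.28, edgeR adjusted p = 0.00950). DKO kidneys there had 66.4, 103 and 86.7 FPKM, all below the controls. With vehicle Lrp2 was 159, 177 and 155 FPKM in controls, 25.03, 24.5 and 37.4 FPKM in Tsc2 KO and 91.5, 76.8 and 109.8 FPKM in DKO kidneys, and with rapamycin 123, 146 and 121 FPKM in Tsc2 KO kidneys. The Tsc2 KO kidneys with vehicle were the lowest of the cohort, at a log2 fold change of -2.50 against control (SE 0.18, edgeR adjusted p = 7.76e-08) and of 2.17 for rapamycin against vehicle (SE 0.18, edgeR adjusted p = 4.82e-07). Both were called as well without the adrenal-marked libraries, at -2.14 (edgeR adjusted p = 2.12e-05) and 1.81 (0.000111). Vehicle-treated DKO kidneys also lay below their controls, at log2 -0.82 with all libraries and -0.59 without the adrenal-marked ones. In the Tsc2 KO kidneys of each cohort, then, the transcript of the carrier was higher and that of its kidney receptor lower.

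**Figure D4:**
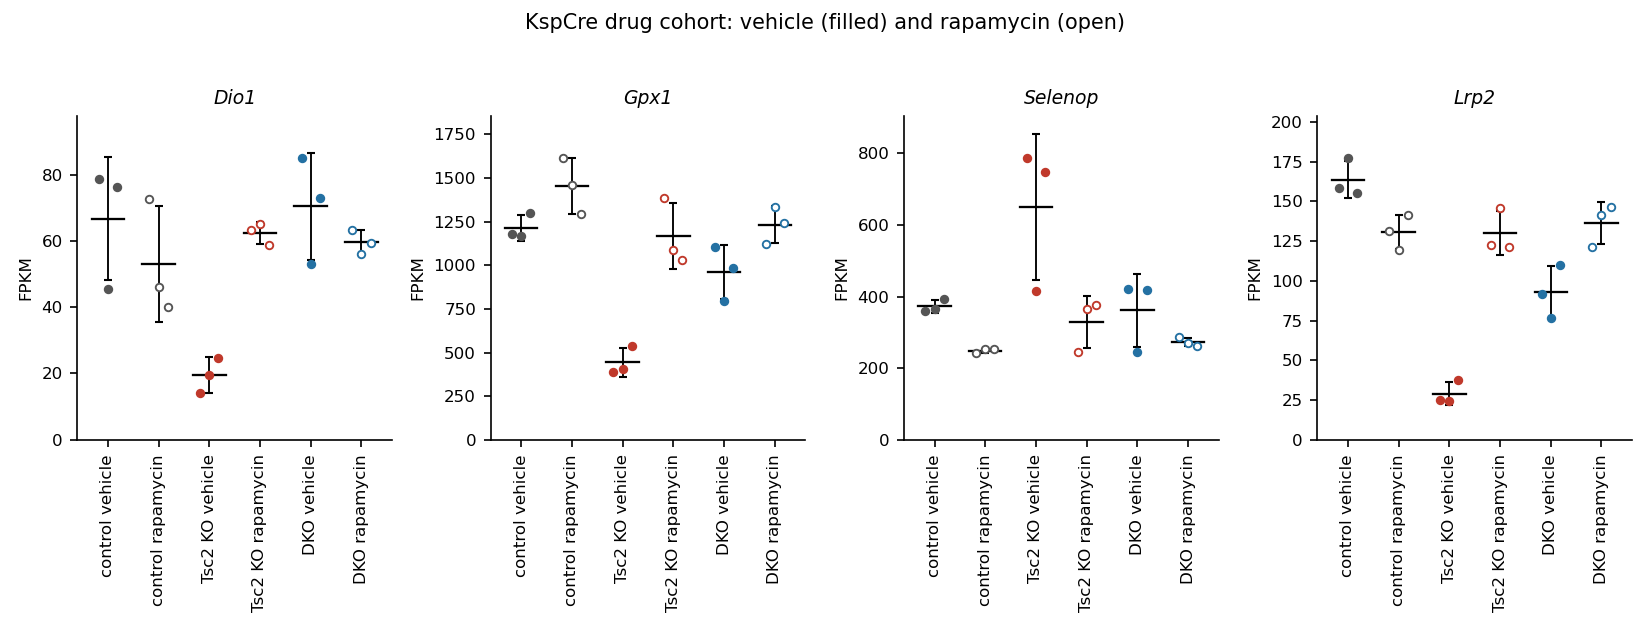
FPKM (linear axes from 0) of Dio1, Gpx1, Selenop and Lrp2 in the 18 kidneys of the drug cohort, with 1 point per library, filled for vehicle and open for rapamycin, and the mean and SD of each group of 3. Vehicle-treated Tsc2 KO kidneys are the lowest group for Dio1 (14.0 to 24.8 FPKM), Gpx1 (387 to 538 FPKM) and Lrp2 (24.5 to 37.4 FPKM) and the highest for Selenop (416 to 787 FPKM, beside DKO values up to 422 FPKM).

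Selenof, Selenok and Selenom are proteins of the endoplasmic reticulum: Selenof binds the folding sensor UGGT1, Selenok sits in the membrane and takes part in the degradation of misfolded proteins, and Selenom has a thioredoxin-like fold. Selenof moved with Tsc2 in the drug cohort. It was 48.4, 59.9 and 55.5 FPKM in vehicle-treated controls, 43.4, 36.1 and 39.6 FPKM in Tsc2 KO kidneys and 44.4, 62.5 and 52.4 FPKM in rapamycin-treated Tsc2 KO kidneys. It was 1.37-fold lower in Tsc2 KO than in control kidneys with vehicle (log2 -0.46, SE 0.13, edgeR adjusted p = 0.00926) and 1.34-fold higher with rapamycin (log2 0.42, SE 0.13, edgeR adjusted p = 0.0195), each with separate ranges. In controls it was 47.7, 44.3 and 40.1 FPKM with rapamycin, all below the vehicle values (log2 -0.31, edgeR adjusted p = 0.400), and the difference between the effects was 0.73 (SE 0.18, edgeR adjusted p = 0.00914). The first call was lost without Tsc2 KO vehicle 2 (-0.38, edgeR adjusted p = 0.0540), the second without Tsc2 KO vehicle 2 or 3 or Tsc2 KO rapamycin 2 (0.29 to 0.41, edgeR adjusted p of 0.0539 to 0.105) or with only the groups compared (0.45, 0.0948). All 3 were lost without the adrenal-marked libraries, at -0.48 (edgeR adjusted p = 0.106), 0.43 (0.181) and 0.75 (0.0672). In the other cohorts Selenof was not called and ranged from 38.5 to 58.1 FPKM.

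Selenok was called once, for CaggCreERT2 DKO against control. Controls had 44.6, 40.7 and 51.5 FPKM, Tsc2 KO kidneys 49.2, 53.0 and 54.3 FPKM and DKO kidneys 58.4, 66.5 and 59.1 FPKM, and the DKO range lay above both others. The increase over control was 1.38-fold (log2 0.46, SE 0.13, edgeR adjusted p = 0.0349). It was lost without control 1 or 2 or any DKO kidney (log2 0.39 to 0.50, edgeR adjusted p of 0.0678 to 0.150), with sex as a covariate (0.49, 0.0524), with the replicate number as a block (0.46, 0.0704), with limma (0.42, 0.0539) and with the count table's names (0.28, 0.648). For rapamycin against vehicle in DKO kidneys, Selenok had 38.3, 35.5 and 34.8 against 48.8, 43.9 and 43.2 FPKM and was not called (log2 -0.32, SE 0.09, edgeR adjusted p = 0.0507; -0.25, SE 0.13, 0.512 without the adrenal-marked vehicle libraries).

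Selenom was lower in CaggCreERT2 Tsc2 KO kidneys. Controls had 32.2, 29.8 and 29.8 FPKM, Tsc2 KO kidneys 13.1, 18.3 and 26.6 FPKM, Tfeb KO kidneys 28.8, 28.3 and 26.0 FPKM and DKO kidneys 20.8, 23.8 and 19.3 FPKM. Tsc2 KO and DKO kidneys lay below all controls, and the difference of Tsc2 KO was called at 1.52-fold lower (log2 -0.60, SE 0.19, edgeR adjusted p = 0.0299). That call was lost without any of the 3 controls or Tsc2 KO 1 or 2 (log2 -0.62 to -0.39, edgeR adjusted p of 0.0615 to 0.0930), with sex as a covariate (-0.57, 0.135), with the count table's names (-0.60, 0.0741) and with only the groups compared (-0.62, 0.0711). KspCre controls had 21.0, 26.3 and 24.0 FPKM and Tsc2 KO kidneys 19.0, 15.3 and 14.6 FPKM, with separate ranges and a log2 difference of -0.55 (SE 0.17) just outside the threshold. With vehicle the groups overlapped, at 19.2, 12.7 and 20.4 FPKM in controls and 12.2, 14.4 and 15.6 FPKM in Tsc2 KO kidneys.

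Msrb1, which reduces oxidised methionine in proteins, was highest in CaggCreERT2 DKO kidneys. Controls had 78.3, 76.1 and 66.5 FPKM, Tsc2 KO kidneys 64.3, 82.1 and 91.3 FPKM, Tfeb KO kidneys 76.9, 58.2 and 53.8 FPKM and DKO kidneys 107, 132 and 139 FPKM. All 3 DKO kidneys lay above the other 9 libraries of the cohort. The DKO level was 1.76-fold that of controls (log2 0.81, SE 0.16, edgeR adjusted p = 0.00585) and 1.56-fold that of Tsc2 KO kidneys (log2 0.65, SE 0.16, edgeR adjusted p = 0.0223). The latter was lost without Tsc2 KO 1 or DKO 2 or 3 (log2 0.52 to 0.60, edgeR adjusted p of 0.0897 to 0.106) and with only the groups compared (0.65, 0.0535), and with the count table's names both were (0.60, 0.575 and 0.43, 0.398). With vehicle, Msrb1 was 106, 96.3 and 92.1 FPKM in controls, 76.1, 59.4 and 68.2 FPKM in Tsc2 KO kidneys and 108, 74.5 and 98.5 FPKM in DKO kidneys. It was 1.44-fold lower in Tsc2 KO than in control kidneys (log2 -0.53, SE 0.13, edgeR adjusted p = 0.00343), with separate ranges, and without the adrenal-marked libraries the value was -0.54 (edgeR adjusted p = 0.0159). The DKO level was 1.38-fold that of Tsc2 KO kidneys, with ranges that overlapped (log2 0.46, SE 0.13, edgeR adjusted p = 0.0147). That last call was lost without Tsc2 KO 2 or DKO 1 or 3 (log2 0.34 to 0.43, edgeR adjusted p of 0.0586 to 0.0896), with only the groups compared (0.44, 0.112) and without the adrenal-marked libraries (0.53, 0.118).

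Dio1, the type 1 deiodinase that converts thyroxine to the active hormone T3 in liver, kidney and thyroid, had the largest changes of the 8. In CaggCreERT2 controls it was 74.8, 78.1 and 62.2 FPKM, in Tsc2 KO kidneys 16.3, 17.4 and 21.7 FPKM, in Tfeb KO kidneys 62.6, 67.6 and 67.4 FPKM and in DKO kidneys 68.9, 92.4 and 94.7 FPKM. The Tsc2 KO kidneys stood apart from the other 9 libraries, and the DKO range overlapped that of the controls. Dio1 fell by 1.90 on the log2 scale in Tsc2 KO kidneys (SE 0.14), or 3.72-fold (edgeR adjusted p = 5.83e-06), and the DKO level was 4.55-fold that of Tsc2 KO kidneys (log2 2.19, SE 0.15, edgeR adjusted p = 1.06e-05). DKO against control was not called (log2 0.29). Deleting Tfeb went with a different change of Dio1 with and without Tsc2. The effect of Tfeb KO among mice with Tsc2 minus that among mice without it was -2.28 (SE 0.20, edgeR adjusted p = 0.000330), in a test that called 2.13% of all genes and no other member, and it was -2.25 (0.00997) without the adrenal-marked Tfeb KO libraries, which leaves 1 Tfeb KO kidney, assumed to vary like the other groups. The calls of Dio1 in this cohort held on leaving out each library, with sex as a covariate and with the count table's names.

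Among KspCre mice Dio1 was 76.0, 63.4 and 69.0 FPKM in controls, 51.5, 37.9 and 69.9 FPKM in Tsc2 KO, 63.0, 37.6 and 62.7 FPKM in Tfeb KO and 47.7, 66.4 and 69.8 FPKM in DKO kidneys. Tsc2 KO 3 lay within the control range and the difference was not called (log2 -0.39, SE 0.25, edgeR adjusted p = 0.346). In the drug cohort it was 78.6, 45.5 and 76.2 FPKM in controls, 14.0, 19.7 and 24.8 FPKM in Tsc2 KO and 85.0, 53.1 and 73.1 FPKM in DKO kidneys with vehicle. With rapamycin it was 72.8, 46.2 and 40.1 FPKM in controls, 63.4, 65.0 and 58.8 FPKM in Tsc2 KO and 63.4, 56.0 and 59.4 FPKM in DKO kidneys. The vehicle-treated Tsc2 KO kidneys again lay below the other 15 libraries, while the other 5 groups overlapped in the order of their means. Dio1 was 3.42-fold lower in Tsc2 KO than in control kidneys with vehicle (log2 -1.77, SE 0.26, edgeR adjusted p = 5.84e-05). DKO kidneys had 3.61-fold more than Tsc2 KO kidneys (log2 1.85, SE 0.26, edgeR adjusted p = 0.000119) and 3.21-fold higher with rapamycin than with vehicle in Tsc2 KO kidneys (log2 1.68, SE 0.26, edgeR adjusted p = 0.000158). The rapamycin effect on Dio1 in Tsc2 KO kidneys exceeded that in controls by 2.01 (SE 0.36, edgeR adjusted p = 0.00113), and that in DKO kidneys by 1.92 (SE 0.36, edgeR adjusted p = 0.00472). The first of these interaction tests called 3 of 8 members (Gpx1, Selenof and Dio1) and 29.8% of all genes, and the second 2 of 8 (Gpx1 and Dio1) and 11.0%. Without the adrenal-marked libraries Dio1 was still called against control (log2 -1.44), with rapamycin (1.34) and for the difference from the effect in controls (1.68, edgeR adjusted p = 0.0232), but DKO against Tsc2 KO was 1.56 with an edgeR adjusted p of 0.0606 and the difference from the DKO effect 1.63 with 0.131. The KspCre and drug cohorts had the same Cre and age, but only the drug cohort was injected, and its vehicle-treated Tsc2 KO 1 and 2 were adrenal-marked. Dio1 was 37.9 to 69.9 FPKM in KspCre and 14.0 to 24.8 FPKM in vehicle-treated Tsc2 KO kidneys. Proximal tubule markers summed to 2192 to 3894 and 929.9 to 1548 FPKM in the same kidneys. The difference between the cohorts was not tested, since their tables were normalized separately.

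Single genes of thyroid hormone transport, reception and response were called in both directions, in comparisons in which 18.2% (KspCre) to 48.5% (vehicle) of all genes were, so that they are given as single values only. In CaggCreERT2 Tsc2 KO kidneys the transporter gene Slc16a10 was higher (log2 1.21), and the lipogenic enzyme gene Me1 (-0.83) and the receptor gene Thra (-0.43) were lower. In vehicle-treated Tsc2 KO kidneys Me1 (-1.29) and the receptor gene Thrb (-0.83) were lower and Slc16a10 (1.18) was higher. With rapamycin Me1 (0.83) and Thrb (0.79) were higher than with vehicle in Tsc2 KO kidneys. Me1 with rapamycin was no longer called without the adrenal-marked libraries (0.68, edgeR adjusted p = 0.0795), while the other 4 of these vehicle and rapamycin calls held. In KspCre Tsc2 KO kidneys Slc16a10 (2.05) was called higher.

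Of 15 other selenoprotein genes, 9 or 10 reached the 5 FPKM needed for a call in the comparisons given here. In CaggCreERT2 Tsc2 KO kidneys 1 was called higher, Sephs2 (log2 0.67), which makes the selenium donor, and 1 lower, the thioredoxin reductase Txnrd3 (-0.50), beside 38.4% of all genes in either direction. In vehicle-treated Tsc2 KO kidneys 2 were called lower, Txnrd2 (-0.47) and Txnrd3 (-0.72), beside 48.5% of all genes, and for DKO against Tsc2 KO 3 higher, Selenow (0.31), Txnrd2 (0.64) and Txnrd3 (0.50), beside 29.5%. Rapamycin against vehicle gave 1 call in Tsc2 KO kidneys, Txnrd3 (0.63), beside 38.5% of all genes, and 1 in DKO kidneys, Selenow (-0.37), beside 7.43%. None of these calls of the drug cohort was kept without the adrenal-marked libraries, and no comparison of the KspCre cohort gave a call among the 15. Gpx2, Dio3 and Selenov were near 0, with medians of 0.0172, 0.157 and 0 FPKM. Dio2 had a median of 0.204 FPKM but reached 5.18 FPKM.

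A list of 10 genes covers the making and reading of selenocysteine. In CaggCreERT2, KspCre and vehicle-treated Tsc2 KO kidneys 3, 1 and 4 of them were called, beside 38.4%, 18.2% and 48.5% of all genes, and with rapamycin in Tsc2 KO kidneys 4, beside 38.5%. The 10 include 1 gene, Pstk, below the 5 FPKM needed for a call. They share Sephs2 with the list of other selenoprotein genes, so its call in CaggCreERT2 Tsc2 KO kidneys is counted in both. Sars, the seryl-tRNA synthetase that charges the selenocysteine tRNA as well as the serine tRNAs, was higher in the Tsc2 KO kidneys of each cohort, at log2 1.25, 0.59 and 0.98 in CaggCreERT2, KspCre and vehicle-treated mice. It was lower with rapamycin than with vehicle in Tsc2 KO kidneys (-0.78). Sepsecs, the enzyme that converts the charged serine to selenocysteine, was lower in CaggCreERT2 (-0.76) and vehicle-treated (-1.12) Tsc2 KO kidneys and higher with rapamycin (0.97). Scly, which frees selenium from selenocysteine, was lower in vehicle-treated Tsc2 KO kidneys (-0.68) and higher with rapamycin (0.71). Sars (0.94) and Sepsecs (-0.98) were still called with vehicle without the adrenal-marked libraries, and with rapamycin Sars alone was (-0.74), with edgeR adjusted p of 0.0540 for Sepsecs and 0.186 for Scly; Scly was also lost with vehicle (-0.41, 0.172).

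Some antioxidant genes that do not use selenium were called lower in Tsc2 KO kidneys, at a share above that of all genes in each cohort. Of 23 such genes, 9 were called lower and 0 higher in CaggCreERT2 Tsc2 KO kidneys, where 15.5% of all genes were called lower, with Cat (catalase, log2 -1.22), Msra (methionine-S-sulfoxide reductase, -0.92) and Prdx5 (a peroxiredoxin, -0.84) the largest. In KspCre Tsc2 KO kidneys 8 were lower and 1 higher, with Gpx6 (-1.20), Sod1 (-0.89) and Cat (-0.83) the largest, where 8.74% of all genes were lower. In vehicle-treated Tsc2 KO kidneys 14 were lower and 1 higher, with Cat (-1.90), Gpx6 (-1.70) and Msra (-1.67) the largest, where 24.6% were lower. For DKO against Tsc2 KO kidneys with vehicle 14 were higher, beside 16.9% of all genes, and with rapamycin 14, beside 21.2%, led by Cat (1.67), Msra (1.37) and Gclm (1.26). In KspCre the list summed to 2223 to 2404 FPKM in controls, 1565 to 1775 in Tsc2 KO and 1664 to 1898 in DKO kidneys. There the DKO range overlapped that of Tsc2 KO and lay below the controls. In CaggCreERT2 the sums were 1578 to 2055 FPKM in Tsc2 KO and 2270 to 2523 in DKO kidneys. Leaving out the adrenal-marked libraries left a single kidney in each of the vehicle-treated Tsc2 KO and DKO groups. Fewer genes of the list were called in that fit in each of the vehicle and rapamycin comparisons given here. Calls over all genes fell there as well, so these losses are not read as a result on the list. The list's median was -0.37 in CaggCreERT2 and -0.51 in vehicle-treated Tsc2 KO kidneys, beside 0.00 and 0.01 over all genes.

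Transcripts whose levels ran most like those of Gpx3, Selenop and Dio1 were sought among 6774 genes, as the correlation of log2(FPKM + 1) over the 42 libraries after each cohort's mean was subtracted. These libraries share genotype, so the values are a description. Gpx3 was most like Spp2 (r = 0.843), Fth1 (0.831) and Ush1c (0.819), Selenop most like Asph (0.871), Lgmn (0.870) and Ctsb (0.852), and Dio1 most like Mipep (0.902), Abhd3 (0.890) and Egf (0.883). Among the 9 themselves, Gpx3 ran with Gpx4 (r = 0.71), Gpx1 with Dio1 (0.69) and Selenop against Selenom (-0.73).

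Promoter windows of the 9 genes, from 250 bases before to 50 after the start in RefSeq on GRCm38.p6, were searched on both strands. None of the 9 held the E-box CACGTG, which the windows of 8.09% of all 27025 genes held, nor the longer TCACGTGA that contains it, which those of 1.13% held. TGACNNNGC, the core of the antioxidant response element, was found in 1 of the 9, Selenok, and in 14.0% of all genes.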

How the data were processed

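For each of the 3 cohorts the authors deposited 2 tables of 54532 genes. One holds raw read counts per gene, and the other holds FPKM that the authors made from such counts by scaling for gene length and library size. Submitters' processing notes name mm10, STAR 2.6.1d, HISAT2 2.0.5, featureCounts 1.5.0-p3 and DESeq2 1.20.0 without their roles. Libraries were poly-A captured and did not keep the strand. All value columns were mapped to samples (0 left over). In the CaggCreERT2 cohort 4 libraries carry different names in the 2 tables. Columns were joined on a constant ratio of FPKM times gene length to count, over genes with at least 50 reads, and named as in the FPKM table.

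Counts were fitted in R 4.3.3 with edgeR 4.0.16 (filterByExpr, TMM, glmQLFit, glmQLFTest), fitting each cohort's groups together without covariates, and the procedure was tested on simulated data. P-values were adjusted over all genes tested, and a mean of at least 5 FPKM was required for a call. Alternatives included DESeq2 1.42.0 and limma 3.58.1 on log2(FPKM + 1). FPKM served for levels. The members and gene lists were chosen with earlier results of these data known. Named were all 9 members, Lrp2, Lrp8 and, from each other list, at most the 3 called genes with the largest change. A listed gene is not reported here. The deposited counts total 14926050 to 22807605 reads per library.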

Additional observations from a re-analysis of the deposited data

Results flagged for a closer look

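The effect of deleting Tfeb on Dio1 differed with Tsc2 in the CaggCreERT2 cohort: the difference among mice with Tsc2 minus that among mice without it was -2.28 on the log2 scale (edgeR adjusted p = 0.000330). The effect of rapamycin differed between Tsc2 KO and control mice for Dio1, by 2.01 (edgeR adjusted p = 0.00113), for Gpx1, by 1.14 (0.00268), and for Selenof, by 0.73 (0.00914). It differed between Tsc2 KO and DKO mice for Dio1, by 1.92 (0.00472), and for Gpx1, by 1.04 (0.0122). Without the adrenal-marked libraries both differences from DKO mice (1.63, edgeR adjusted p = 0.131, and 0.79, 0.228) and that of Selenof from controls (0.75, 0.0672) were not called. For Selenof the 3 kidneys given rapamycin lay above the vehicle-treated ones among Tsc2 KO mice (log2 0.42) and below them among controls (-0.31).

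Opposite directions with separate ranges of 3 against 3 kidneys were also seen between cohorts. The share of all genes with such a reversal was not determined, so these are given as single values only. Gpx4 of DKO kidneys lay above the controls in the CaggCreERT2 cohort (log2 0.45) and below them in the KspCre cohort (-0.20). Selenom of Tfeb KO kidneys lay below the controls in the CaggCreERT2 cohort (-0.12) and above them in the KspCre cohort (0.45). None of these 4 differences was called by edgeR with the groups of its cohort fitted together. In the CaggCreERT2 cohort the Tfeb KO kidneys were 3 females, with Tfeb KO 1 and 2 adrenal-marked, and the controls were 3 males. The difference between the cohorts was not tested.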

How the results depend on the processing

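The counts of called transcripts changed by over 1.5 times as follows, and the cause was not tested. With the names of the CaggCreERT2 count table, which put a library with 10.2 FPKM of Tsc2 among the DKO and one with 5.26 FPKM among the Tfeb KO kidneys, 1 was called for Tsc2 KO against control (3 otherwise), 1 for DKO against Tsc2 KO (2 otherwise) and 0 for DKO against control (3 otherwise). With only the groups compared in the fit the counts were 1, 5, 2 and 2 for CaggCreERT2 DKO against Tsc2 KO, CaggCreERT2 DKO against control, KspCre Tsc2 KO against control and vehicle-treated DKO against Tsc2 KO (2, 3, 1 and 4 otherwise). For KspCre Tsc2 KO against control the count was 2 with RLE factors, with scaling without the members and with limma, and 3 with DESeq2 (1 otherwise), and for rapamycin in DKO mice 1 with each of these 4 (0 otherwise). The CaggCreERT2 test of the Tfeb effect gave 2 with no filter on low counts and with DESeq2 (1 otherwise). Without the adrenal-marked libraries, an alternative chosen after seeing the data, 0 were called for vehicle-treated DKO against Tsc2 KO and for the rapamycin effect in Tsc2 KO minus DKO mice (4 and 2 otherwise). Without the macrophage-rich KspCre library, chosen likewise, the counts for the KspCre comparisons that include DKO stayed at 0.

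On leaving out each replicate in turn the counts ran from 2 to 4 for CaggCreERT2 Tsc2 KO against control, 1 to 3 for DKO against Tsc2 KO, 2 to 3 for DKO against control, 0 to 1 for KspCre Tsc2 KO against control and 1 to 2 for the CaggCreERT2 Tfeb test. In the drug cohort they ran from 4 to 5 for Tsc2 KO against control with vehicle, fell to 3 on every omission for DKO against Tsc2 KO (4 with all libraries), ran from 3 to 4 for rapamycin in Tsc2 KO mice, stayed at 3 for its difference from the effect in controls and ran from 2 to 3 for that from DKO mice. With the replicate number as a block 2 were called for CaggCreERT2 DKO against control (3 otherwise), Selenok being lost (log2 0.46, adjusted p = 0.0704 by edgeR), and Selenop was lost in KspCre Tsc2 KO kidneys (0.88, 0.0621). The numbers were not taken as pairs, since the median correlation of same-numbered libraries was 0.01, -0.04 and -0.01 in the 3 cohorts, and 2 of 12, 6 of 12 and 7 of 18 libraries correlated best with their own number. No called value changed sign. Group ratios from TMM-scaled CPM differed from those of FPKM by at most 0.06 on the log2 scale.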

Other observations

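Some genes of protein quality control in the endoplasmic reticulum, the compartment of Selenof, Selenok and Selenom, were called higher in Tsc2 KO kidneys, most of them in the CaggCreERT2 cohort. Of 12 such genes 8 were called higher and 0 lower in CaggCreERT2 Tsc2 KO kidneys, where 23% of all genes were called higher, led by the stress-induced factor Ddit3 (log2 1.26), the chaperone cofactor Sdf2l1 (1.19) and the chaperone Hspa5 (0.65). In KspCre Tsc2 KO kidneys 2 were higher, Ddit3 (1.17) and the segregase Vcp (0.38), beside 9.42% of all genes. In vehicle-treated Tsc2 KO kidneys 6 were higher, led by Ddit3 (1.16), Sdf2l1 (0.86) and Uggt1 (0.42), the partner of Selenof, and 1, Pdia4 (-0.41), was lower, beside 23.8% of all genes higher. With rapamycin in Tsc2 KO kidneys 0 were higher and 4 lower, beside 17.3% of all genes lower. Without the adrenal-marked libraries, which left 1 vehicle-treated Tsc2 KO kidney, the log2 fold change of Ddit3 with vehicle was 1.21. Most of the vehicle calls and all of the rapamycin calls on the list were lost in that fit. Calls over all genes fell there as well, so these losses are not read as a result on the list. The 12 genes summed to 775 to 848 FPKM in CaggCreERT2 controls and 1003 to 1043 in Tsc2 KO kidneys, but their sums overlapped in KspCre (833 to 894 and 697 to 896) and in vehicle-treated kidneys (675 to 765 and 729 to 745).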
